A study of Mus musculus with 36 samples.

Results

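The DNA replication genes described here are a list of 38 genes whose products prepare replication origins, unwind and copy DNA, supply its building blocks or rebuild chromatin behind the replication fork. The list was made by name and function, and for each gene the probe set with the brightest mean over all 36 arrays was used. Of the 38 genes, 37 were measured among 17097 genes in all, and Chaf1a was dropped because no probe set used here carried its symbol alone. The arrays were Affymetrix HT MG-430 PM chips hybridized with colon RNA from wild-type (WT) and Il17rc knockout (KO) mice; Il17rc encodes a subunit of the receptor through which IL-17A and IL-17F signal. Mice aged 6 to 8 weeks were left untreated, or were injected with the colon carcinogen azoxymethane and then given 3 cycles, each of 5 days with 3% dextran sulfate sodium (DSS) in the water, which injures the colon lining, and 14 days with plain water. The labels state these cycles for the treated mice as a whole; colon labelled day 7 or day 15 would have been taken before they were complete if days are counted from the start of treatment, which the labels do not state. Each genotype had 4 arrays of untreated colon (day 0), 4 of treated colon at day 7, 4 of treated colon at day 15 and 6 labelled tumor at day 63. The sources used here do not give the mouse strain, the way Il17rc was inactivated or the share of tumor tissue in the tumor samples. Nothing in the labels says that arrays of a group came from separate mice, so p-values rest on the spread among samples, which may be technical.

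Replication starts when the origin recognition complex, with Cdc6 and Cdt1, loads the ring of Mcm2 to Mcm7 onto DNA before S phase. Cdc45 and the GINS complex then turn that ring into the active helicase, primase and DNA polymerase alpha lay down primers, and polymerases delta and epsilon extend them while held by the sliding clamp PCNA, which the RFC complex loads. Most of these genes are transcribed as cells enter S phase, under E2F transcription factors, so in a tissue their RNA is known as a sign of dividing cells. In the colon, dividing cells lie mostly at the base of the crypts, and colon tumors and immune cells in lymphoid follicles divide too. In RNA from whole colon pieces, fewer dividing cells and less RNA per dividing cell cannot be told apart.

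Il17rc served as the check of the genotype. Its deposited intensity was 76 to 515 in the WT arrays and 7 to 15 in all KO arrays except KO day 7 replicate 1, at 331, and KO day 7 replicate 2, at 44. The arrays of that group are called the arrays labelled KO day 7. Total counts of called genes, of the list and of the other gene lists, are also given without these 2 replicates. Counts by role, of groups that do not overlap and of cell type markers are given only with both. Krt5, a keratin of squamous epithelium that normal colon epithelium lacks, was above 100 in 7 arrays. They were replicates 1 and 4 of untreated WT, 1 and 4 of WT day 7, 1 and 2 of KO day 7, and 2 of KO tumor. Colon epithelium was present throughout: Epcam, an epithelial adhesion protein, was at 5268 to 7330, and 12 of 12 colon epithelium markers together summed to 36031 to 53380. The median of an array was 14 to 16, and 6 genes of the list (Orc1, Gins1, Gins3, Pole, Chaf1b and Uhrf1) had a mean under 16 in at least 1 group, where a log2 difference depends on the constant added before the logarithm.

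The promoters are shown because these genes moved together across the arrays and E2F is the factor known to control many of them. Sequences are from RefSeq on the GRCm38.p6 build, in windows of 250 bases before to 50 bases after the start of a gene, and 31 of the 37 measured genes had a window. The words TTTCCCGC, TTTGGCGC, TTTCGCGC and TTTGCCGC, forms of the E2F motif, were searched on both strands, and a word may overlap another. At least 1 of them was found for 14 of the 31 genes (45.2%), against 511 of 13514 genes with a probe set and a window (3.78%). The stretches below run 5′ to 3′ on the gene's own strand and hold the matches before the start, in capitals, with up to 30 bases on each side. Words overlap in Mcm5 and in Mcm6. No stretch goes past the base before the start, so a further match in Mcm7, at bases 17 to 24 counted from the start, is not shown. The helicase genes Mcm5, Mcm6 and Mcm7, the polymerase gene Pola1 and Uhrf1 are shown as examples of genes called lower at day 7 in WT. Orc1, Gins3 and Cdc6 are shown because they carry a match but were not called there. Dnmt1 and Rfc3, which also hold a match before the start and were called lower there, are not shown.
Mcm5 (chr8:75109326-75109397, plus strand): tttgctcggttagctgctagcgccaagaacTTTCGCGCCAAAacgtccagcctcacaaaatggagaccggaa
Mcm6 (chr1:128359715-128359845, minus strand): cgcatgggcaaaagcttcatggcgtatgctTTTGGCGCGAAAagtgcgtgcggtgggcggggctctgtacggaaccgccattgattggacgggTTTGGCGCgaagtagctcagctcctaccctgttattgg
Mcm7 (chr5:138172011-138172078, minus strand): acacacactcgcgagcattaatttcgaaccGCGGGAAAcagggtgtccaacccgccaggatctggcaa
Pola1 (chrX:93632256-93632323, minus strand): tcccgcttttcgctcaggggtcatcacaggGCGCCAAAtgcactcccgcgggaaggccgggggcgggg
Uhrf1 (chr17:56304098-56304165, plus strand): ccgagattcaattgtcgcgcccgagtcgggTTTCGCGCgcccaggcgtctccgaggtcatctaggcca
Orc1 (chr4:108579397-108579453, plus strand): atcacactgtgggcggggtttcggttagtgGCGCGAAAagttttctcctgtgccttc
Gins3 (chr8:95633488-95633555, plus strand): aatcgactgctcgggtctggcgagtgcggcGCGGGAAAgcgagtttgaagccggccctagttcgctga
Cdc6 (chr11:98907983-98908050, plus strand): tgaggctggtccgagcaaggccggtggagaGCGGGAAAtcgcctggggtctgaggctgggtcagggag

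Genes that fell were found both with and without a match. At day 7 in WT, 9 of 14 genes with a match and 11 of 17 without were called lower, when 1.35% of all genes were. Their median log2 differences were -1.20 and -0.84. In WT tumor 8 of 14 with and 13 of 17 without were called higher, when 12.5% of all genes were. The CCAAT word, bound by NF-Y, was found for 20 of 31 genes (64.5%), against 42.3% of the genes with a probe set and a window. The cell cycle words TTTGAA and TTCGAA were found for 7 of 31 (22.6%), against 17.5%. The words are letters in a window, and binding was not measured.

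Over the whole list, replication genes were lowest at day 7 and highest in tumor, in both genotypes. The mean over the 37 genes, as a log2 difference from the mean of untreated WT, was 0 ± 0.18 (SD, n = 4) in untreated WT. It was -1.10 ± 0.03 (n = 4) in the day 7 arrays of WT, -0.35 ± 0.38 (n = 4) in those of day 15 and 0.74 ± 0.22 (n = 6) in those of tumor. The same values in KO were 0.38 ± 0.13 (n = 4), -0.74 ± 0.31 (n = 4), 0.41 ± 0.30 (n = 4) and 0.82 ± 0.27 (n = 6). The 4 WT day 7 arrays lay within -1.13 to -1.06, below every other array. The groups with the largest SD were WT day 15, from -0.85 in replicate 1 to 0.07 in replicate 2, and the arrays labelled KO day 7, where replicate 1 was at -0.30 and the others between -1.05 and -0.75. KO tumor replicate 2, whose Krt5 intensity was 436, was the highest array, at 1.30.

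**Figure D1:**
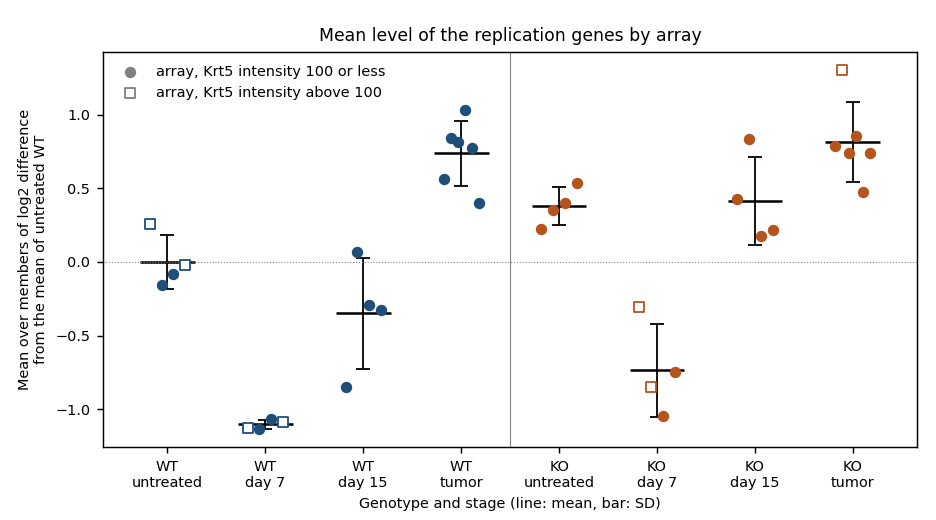
Mean log2 level of the 37 replication genes in each array (vertical axis, difference from the mean of untreated WT) by genotype and stage (horizontal axis); points are arrays and bars are the mean and SD. WT day 7 arrays lie between -1.13 and -1.06, and tumor arrays between 0.40 and 1.30.

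**Figure D2:**
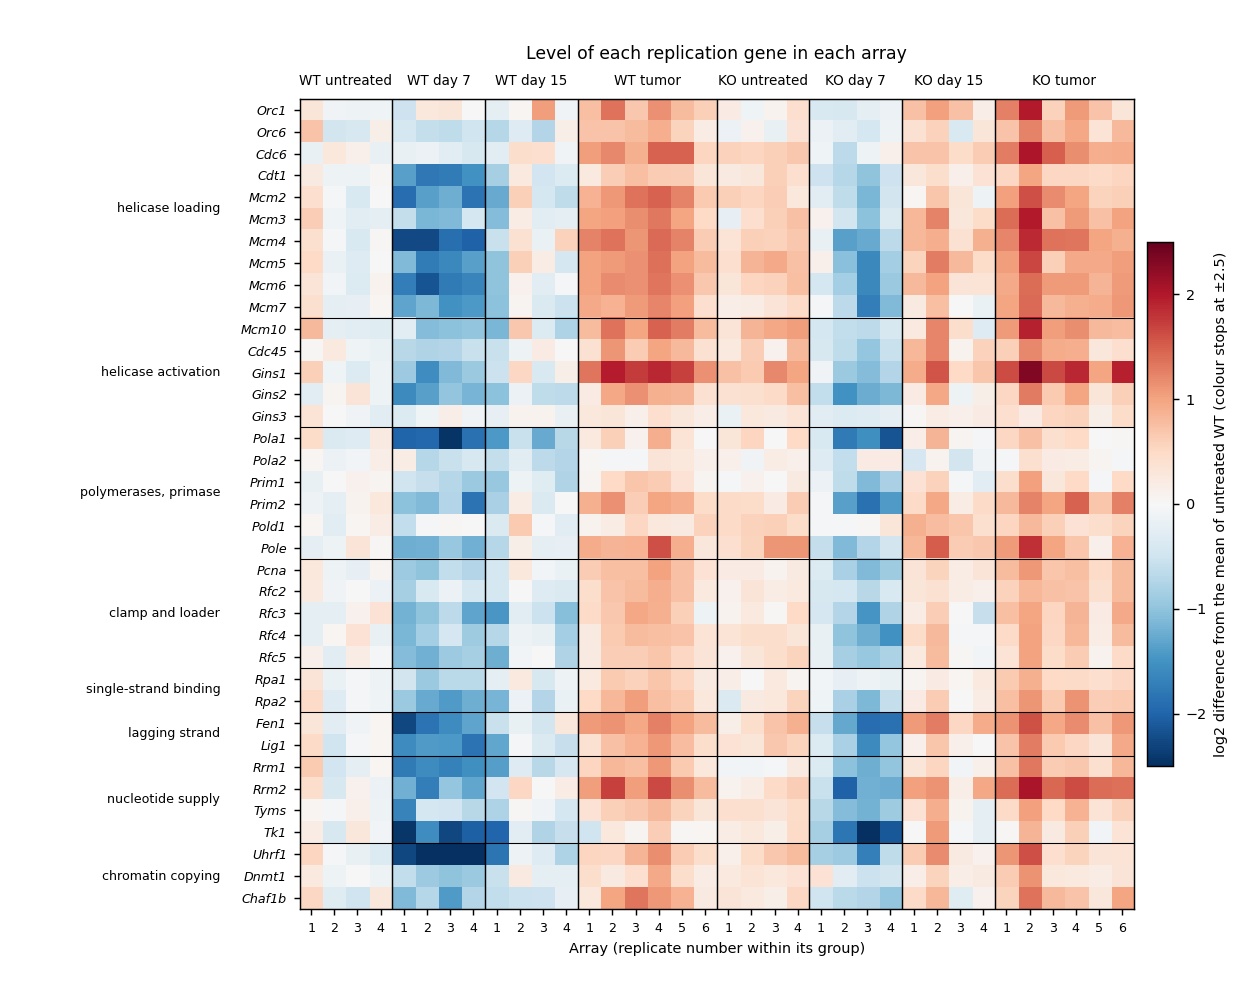
Log2 difference of each replication gene (rows, grouped by role) from the mean of untreated WT in each array (columns, grouped by genotype and stage), with the colour scale stopping at plus and minus 2.5. The WT day 7 columns are blue for nearly every gene, while Orc1, Gins3, Pold1 and Cdc6 show the palest colours on average.

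At day 7 in WT, 25 of the 37 genes fell against untreated WT and 0 rose, when 1.35% of all genes were called lower. The median log2 difference was -1.04 over the list and 0.03 over all genes, and 36 of the 37 differences were below 0. In 30 genes every day 7 array lay below every untreated array, which held for 3.91% of all genes. By role, the fall took in 6 of 10 genes for helicase loading, 2 of 5 for helicase activation, 3 of 6 for polymerases and primase, 3 of 5 for the clamp and its loader, 2 of 2 for single-strand binding, 2 of 2 for joining the lagging strand, 4 of 4 for nucleotide supply and 3 of 3 for copying chromatin. Uhrf1, which brings the DNA methyltransferase Dnmt1 to newly copied DNA, had the largest difference, -2.67 ± 0.31 on the log2 scale (SE; limma, adjusted p = 2.28e-06). Another, dimmer probe set of Uhrf1 (mean intensity 21.75) was at -0.55. Mcm4, a subunit of the helicase ring, fell by 2.11 ± 0.24 (adjusted p = 1.42e-06), and the licensing factor Cdt1 by 1.60 ± 0.16 (adjusted p = 5.3e-07). Thymidine kinase Tk1, which salvages thymidine, fell by 2.07 ± 0.32 (adjusted p = 0.000136). Pola1, the catalytic subunit of polymerase alpha, fell by 2.07 ± 0.28 (adjusted p = 2.12e-05). The 12 genes not called were Orc1, Orc6, Cdc6, Mcm3, Mcm10, Cdc45, Gins3, Pola2, Prim1, Pold1, Rfc2 and Rfc4, with differences from -0.84 in Mcm10 (adjusted p = 0.236) to 0.01 in Orc1 (adjusted p = 0.995). Some of them had another probe set with a mean intensity of at least 16. It was lower than the probe set used for Prim1 (-1.45 against -0.68) and Rfc4 (-1.32 against -0.82). For Rfc2 both were at -0.45, and for Mcm3 it was at -0.59 against -0.81.

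The WT day 7 count was lower without the arrays that held a high level of Krt5. Without the 7 arrays with Krt5 above 100, which left 2 arrays on each side here, 7 genes stayed below the threshold when 0.386% of all genes were called in either direction: Cdt1, Mcm4, Mcm6, Pola1, Fen1, Rrm1 and Uhrf1. Their log2 differences there were -1.64, -1.87, -1.76, -1.87, -1.54, -1.29 and -2.75. The median of 12 squamous markers, as a summed intensity, was 6902 in untreated WT and 2617.5 at day 7, and its part in the counts with all arrays was not tested. Blocking on the letter in the code of the sample titles left 16 genes called. Leaving out single arrays kept 18 of the 25 calls. Calls ended without WT untreated replicate 1 for Chaf1b, Dnmt1, Gins1 and Tyms, without WT untreated replicate 2 for Tyms, without WT untreated replicate 3 for Pole, Rfc3 and Tyms, and without WT untreated replicate 4 for Chaf1b, Prim2, Rfc3 and Tyms. They also ended without WT day 7 replicate 1 for Chaf1b, Rfc3 and Tyms, without replicate 2 for Gins1 and Rfc3, without replicate 3 for Chaf1b and Gins1, and without replicate 4 for Prim2, Rfc3 and Tyms, with a highest adjusted p of 0.199 for Tyms. With 16 in place of 1 added before the logarithm, Gins1, Gins2, Pole and Chaf1b were at -0.69, -0.83, -0.58 and -0.51, and of these only Gins2 kept its call.

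In the arrays labelled KO day 7, 30 of 37 genes were lower than in untreated KO and 0 were higher, when 6.55% of all genes were called lower. The median was -1.08, and in 32 genes the groups did not overlap, which held for 11.9% of all genes. The fall took in 7 of 10 helicase loading genes, 5 of 5 for helicase activation, 4 of 6 for polymerases and primase, 5 of 5 for the clamp and loader, 1 of 2 for single-strand binding, 2 of 2 for the lagging strand, 4 of 4 for nucleotide supply and 2 of 3 for copying chromatin. Tk1 fell by 2.09 ± 0.32 (limma, adjusted p = 3.61e-05). Fen1, the nuclease that trims the flaps of Okazaki fragments, fell by 1.96 ± 0.24 (adjusted p = 1.45e-06), and the GINS subunit Gins2 by 1.62 ± 0.24 (adjusted p = 1.72e-05). Pole and Chaf1b, dim genes, stood at -0.93 and -0.57 with 16 added before the logarithm and kept their calls. Il17rc was in the WT range in replicate 1 and between the other KO arrays and the WT arrays in replicate 2. Without replicates 1 and 2, 29 genes were lower with a median of -1.30. Single arrays ended 4 calls: Cdc6 without KO day 7 replicate 2 (adjusted p = 0.0728), Gins3 without KO untreated replicate 2 or 4, and Prim1 and Rpa2 without KO untreated replicate 4 or KO day 7 replicate 3, Prim1 also without KO day 7 replicate 4 and Rpa2 without KO day 7 replicate 2. All 6 pan-immune markers were lower in these arrays too, with a median sum of 341 against 1611 in untreated KO; in WT the sum was 682.5 at day 7 and 614 in untreated colon, with 0 of 6 called. Their part in the fall was not tested.

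**Figure D3:**
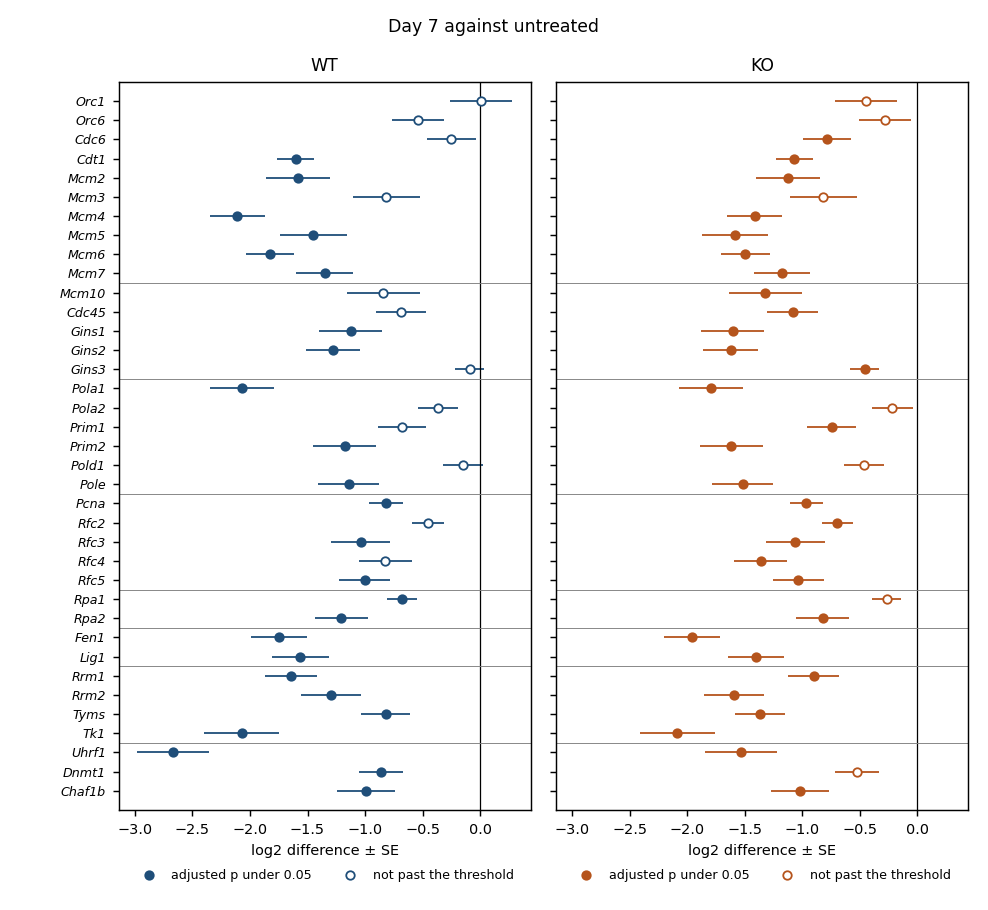
Log2 difference of each replication gene between day 7 and untreated colon (horizontal axis) in WT and in KO, with bars for the limma standard error and filled symbols for adjusted p under 0.05. WT has 25 filled symbols and KO 30, all to the left of 0.

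Between day 7 and day 15 the list went back up. In WT, 17 of 37 genes rose and 0 fell, when 1.84% of all genes were called higher, with a median of 0.66. In KO, 34 of 37 rose and 0 fell, when 12.4% were called higher, with a median of 1.11. Mcm4 rose by 2.17 ± 0.24 in WT (limma, adjusted p = 1.3e-06) and by 1.62 ± 0.24 in KO (adjusted p = 1.07e-05). Fen1 rose by 1.52 ± 0.24 in WT (adjusted p = 0.000376) and by 2.36 ± 0.24 in KO (adjusted p = 1.03e-07). Rpa1, Orc6 and Pola2 were the 3 genes not called in KO, at 0.29, 0.47 and -0.09. The WT count was 7 when WT day 15 replicate 2 was left out and 10 when replicate 4 was, and the genes that kept their call without any single array were Cdt1, Mcm4, Mcm6, Pcna, Fen1, Rrm2 and Uhrf1. The KO count was 29 without KO day 7 replicates 1 and 2, and single arrays ended 4 calls. They were Mcm2 and Rfc3 without KO day 15 replicate 2 or KO day 7 replicate 3, Mcm10 without replicate 2 or 3 of either stage, and Dnmt1 without any of 19 arrays. With only the arrays of both stages in the fit, the count was 2 in WT and 29 in KO, and blocking on the letter in the code of the sample titles it was 9 in WT. Over the same interval all 6 pan-immune markers were called higher in both genotypes, with median sums from 682.5 to 3611.5 in WT and from 341 to 4757.5 in KO. Of 9 germinal centre B cell markers 1 was higher in WT and 6 in KO, with sums from 210 to 657 and from 196.5 to 1210.5. Of 8 smooth muscle markers 0 were lower in WT by limma and 7 in KO, with sums from 21312 to 13577 and from 31826.5 to 11647.5. Their part in the rise was not tested.

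At day 15 few genes of the list passed the test against untreated colon. In WT 1 gene was called lower, Pola1 at -0.99 ± 0.28 (limma, adjusted p = 0.0435), when 1.28% of all genes were called lower. Its call ended without WT untreated replicate 1 or 4 or WT day 15 replicate 1 or 3, among 9 arrays in all, with adjusted p up to 0.153, and the count was 3 when WT day 15 replicate 2 was left out and 2 without WT untreated replicate 2, WT tumor replicate 6, WT day 7 replicate 1 or KO day 15 replicate 4. With only the arrays of both groups in the fit the count was 0. The WT median was -0.35, and 14 genes had an unadjusted p under 0.05. In KO 0 genes were called by limma, when 0.485% of all genes were called higher and 0.322% lower, the median was 0.03 and 0 genes had an unadjusted p under 0.05.

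In WT tumor, 27 of the 37 genes rose against untreated WT and 0 fell, when 12.5% of all genes were called higher. The median was 0.70 over the list, and all 37 differences were above 0, as were 54.4% of those of all genes. In 17 genes the tumor and untreated arrays did not overlap, which held for 8% of all genes. All 10 helicase loading genes rose, with 4 of 5 for helicase activation, 2 of 6 for polymerases and primase, 3 of 5 for the clamp and loader, 2 of 2 for single-strand binding, 2 of 2 for the lagging strand, 3 of 4 for nucleotide supply and 1 of 3 for copying chromatin. Gins1, a GINS subunit, rose by 1.63 ± 0.25 (limma, adjusted p = 1.72e-05). Rrm2, the small subunit of ribonucleotide reductase, which makes deoxynucleotides, rose by 1.24 ± 0.24 (adjusted p = 0.000285). Cdc6, which loads the helicase at origins, rose by 1.10 ± 0.19 (adjusted p = 8.79e-05). Of the genes low at day 7, Tk1 was at 0.09 ± 0.29 (adjusted p = 0.877), Pola1 at 0.37 (adjusted p = 0.325) and Uhrf1 at 0.69 (adjusted p = 0.0818) in tumor, and none of these passed.

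Leaving out single arrays kept 19 of the 27 calls, with a count from 19 to 29. The 8 calls that ended were Lig1 and Prim2 without WT untreated replicate 2, Chaf1b and Rrm1 without replicate 2 or 3, Rpa2 without replicate 2 or 4, Orc6 without replicate 2 or 3 or WT tumor replicate 4, Rfc4 without WT untreated replicate 1, 2 or 4 or WT tumor replicate 2, 3, 4 or 5, and Tyms without any WT untreated array or WT tumor replicate 2, 3, 4 or 5. The highest adjusted p among them was 0.124, for Rfc4. Without the arrays with high Krt5 23 genes were higher. Smooth muscle markers moved as well, from a median sum over 8 genes of 24110.5 in untreated WT to 6977.5 in tumor, and the 7 stem cell markers from 572.5 to 2742. The 6 pan-immune markers went from 614 to 2513. The part of these in the rise was not tested.

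In KO tumor, 13 of 37 genes rose against untreated KO and 0 fell, when 10.8% of all genes were called higher. The median was 0.45, and in 12 genes the groups did not overlap, which held for 10.7% of all genes. By role, 6 of 10 helicase loading genes, 1 of 5 for helicase activation, 2 of 5 for the clamp and loader, 2 of 2 for single-strand binding and 2 of 4 for nucleotide supply rose, and 0 of 6 polymerase and primase genes, 0 of 2 for the lagging strand and 0 of 3 for copying chromatin. Rrm2 rose by 1.21 ± 0.24 (limma, adjusted p = 0.000388). The clamp Pcna rose by 0.58 ± 0.13 (adjusted p = 0.00181), and Rpa1, which coats unwound DNA, by 0.45 ± 0.12 (adjusted p = 0.00542). Orc6, a subunit of the origin recognition complex, rose by 0.77 ± 0.21 (adjusted p = 0.00713). The calls kept without any single array were Orc6, Cdc6, Pcna, Rfc2, Rpa1, Rrm1 and Rrm2. The count was 8 without KO untreated replicate 1, which ended the calls of Gins1, Mcm3, Mcm4, Mcm7 and Rpa2, and KO untreated replicate 2 ended those of Gins1, Mcm3, Mcm7 and Orc1. Mcm3 also lost its call without KO tumor replicate 1 or 2, and Rpa2 without KO tumor replicate 2 or 4. The smooth muscle sum went from 18769 in untreated KO to 9671 in tumor, the stem cell sum from 516 to 2015 and the pan-immune sum from 1611 to 2850, with 7 of 8, 6 of 7 and 0 of 6 markers called, and their part in the rise was not tested.

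**Figure D4:**
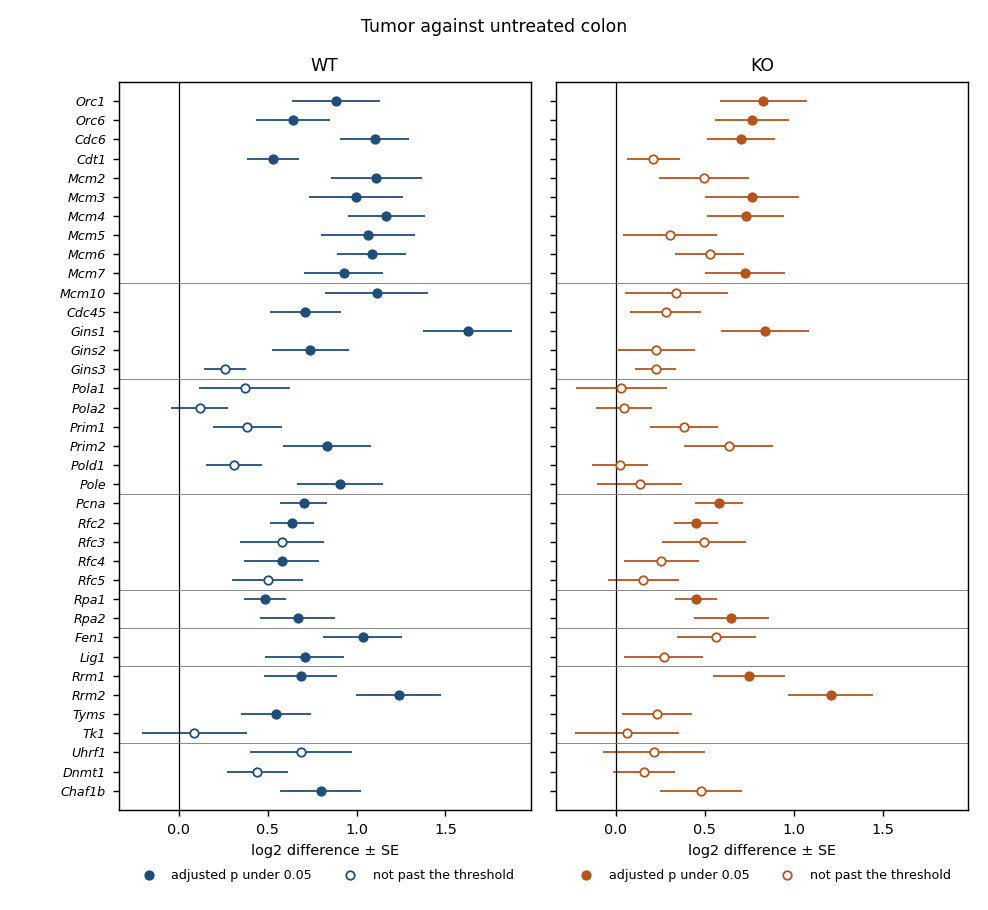
Log2 difference of each replication gene between tumor and untreated colon (horizontal axis) in WT and in KO, with bars for the limma standard error and filled symbols for adjusted p under 0.05. WT has 27 filled symbols and KO 13, all to the right of 0.

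Against day 15, 35 of 37 genes were higher in WT tumor and 0 lower, when 12.2% of all genes were called higher, with a median of 1.11. The groups did not overlap in 31 genes, which held for 7.83% of all genes. The genes not called were Gins3 and Pold1, and single arrays ended the calls of Tk1 (adjusted p = 0.159) and Dnmt1 (adjusted p = 0.0581) without WT day 15 replicate 1 and that of Orc1 without any of 9 arrays. In KO 8 of 37 genes were higher in tumor than at day 15, when 8.56% of all genes were called higher. They were Rpa1, Mcm7, Cdc6, Rfc2, Gins1, Pcna, Rrm2 and Mcm2, and the call of Rpa1, 0.43 ± 0.12 (limma, adjusted p = 0.0126), was the 1 kept without any single array. The KO count was 4, 14, 2 and 3 without KO day 15 replicates 1, 2, 3 and 4 and 3 without KO tumor replicate 2, and 4 with only the arrays of both groups in the fit. These comparisons share the tumor arrays with those against untreated colon.

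**Figure D5:**
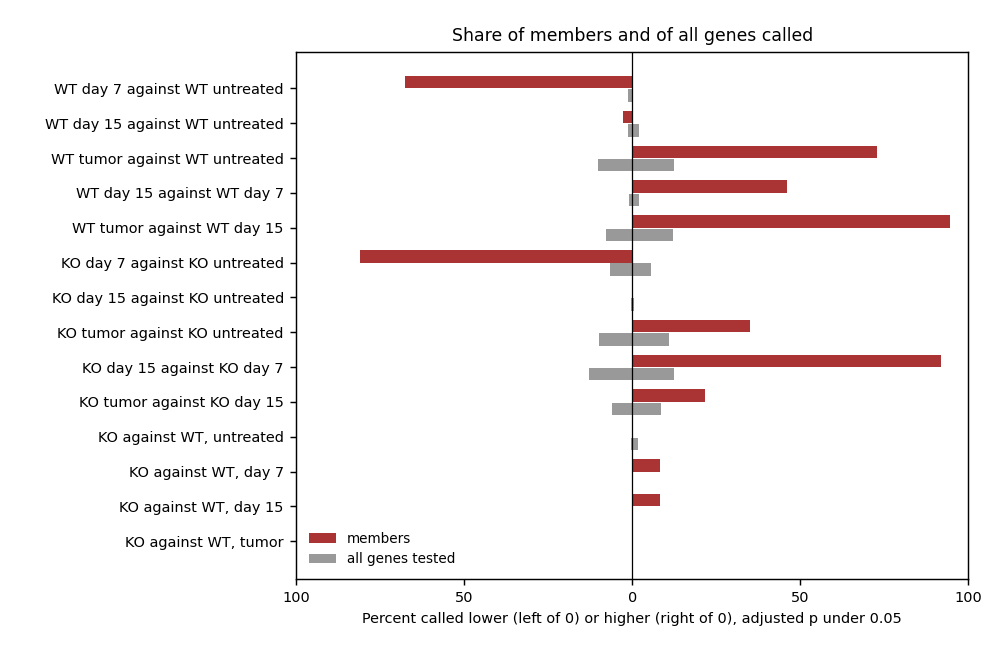
Percent of the 37 replication genes and of all 17097 genes called higher or lower (horizontal axis) in each comparison (vertical axis), at adjusted p under 0.05 by limma. The replication genes reach 25 of 37 lower at day 7 and 27 of 37 higher in tumor in WT, and 30 of 37 and 13 of 37 in KO.

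Few genes of the list passed the threshold between KO and WT at any stage, and no interaction of genotype and stage was called. The differences at day 15 still shared a direction. All 37 were above 0 there, as were 47.1% of those of all genes, and 34 had an unadjusted p under 0.05 by limma. In untreated colon 0 of 37 genes passed by limma, when 1.78% of all genes were called higher in KO and 0.485% lower. All 37 differences were above 0 there, with a median of 0.38, 11 genes had an unadjusted p under 0.05, and the groups did not overlap in 7 genes, which held for 5.97% of all genes. Gins1 had the largest difference, 0.90 ± 0.27 (adjusted p = 0.0872), and 1 gene passed without WT untreated replicate 1. In tumor 0 genes passed by limma, when 0.0117% of all genes were called higher and 0.0409% lower, the median was 0.07 and 0 genes had an unadjusted p under 0.05. For the interactions, 0 genes passed by limma at day 7, day 15 and tumor, when 2.36%, 0.0819% and 0.784% of all genes were called in either direction, and 5, 3 and 3 genes had an unadjusted p under 0.05. The smallest adjusted p was 0.191 for Uhrf1 at day 7 (1.13 ± 0.44), 0.448 for Rrm1 at day 15 (0.91 ± 0.31) and 0.536 for Pole in tumor (-0.77 ± 0.34). Without KO day 7 replicates 1 and 2 the day 7 interaction of Uhrf1 was 0.98 (adjusted p = 0.403), and 0 genes passed. So the different counts of called genes in WT and KO are not shown to be different responses.

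At day 7, 3 genes were higher in KO than in WT and 0 lower, when 0.0819% of all genes were called higher. Uhrf1 was at 19, 15, 10 and 14 in WT and 48, 47, 29 and 57 in the arrays labelled KO, a difference of 1.64 ± 0.31 (limma, adjusted p = 0.0112). Mcm4 was at 35, 37, 41 and 42 in WT and 155, 68, 77 and 113 in KO, a difference of 1.24 ± 0.24 (adjusted p = 0.0112). Cdt1 was at 127, 99, 91 and 119 in WT and 240, 207, 177 and 244 in KO, a difference of 0.92 ± 0.16 (adjusted p = 0.00536). In all 3 the KO arrays lay above every WT array, as they did in 8 genes of the list and in 3.19% of all genes. When KO day 7 replicates 1 and 2 were left out, the call of Mcm4 remained, while Cdt1 (adjusted p = 0.0539) and Uhrf1 (adjusted p = 0.0818) no longer passed. With 16 in place of 1 added before the logarithm, Uhrf1 was at 1.05 (adjusted p = 0.0686). Against untreated colon, another probe set of Uhrf1 (mean intensity 21.75) was at -0.55 in WT and -1.08 in KO. Another of Cdt1 (mean intensity 82.22) was at -1.87 and -2.07. With the probe sets used the fall was larger in WT, at -2.67 and -1.53 for Uhrf1 and -1.60 and -1.07 for Cdt1. The genotypes were not compared on the other probe sets. The call of Mcm4 ended without WT day 7 replicate 2 or KO day 7 replicate 4, that of Uhrf1 without WT day 7 replicate 3 or KO day 7 replicate 4, and the count was 1 without KO day 7 replicate 4, 6 when WT day 7 replicate 1 was left out and 5 without the arrays with high Krt5. With only the arrays of both groups in the fit, 0 of the 37 genes and 0 of all genes passed.

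At day 15, 3 genes were higher in KO and 0 lower, when 0.17% of all genes were called higher. Fen1 was at 48, 54, 44 and 94 in WT and 157, 173, 101 and 144 in KO, a difference of 1.18 ± 0.24 (limma, adjusted p = 0.0287). Pola1 was at 26, 43, 26 and 52 in WT and 90, 131, 76 and 81 in KO, a difference of 1.25 ± 0.28 (adjusted p = 0.0467). Pole, the catalytic subunit of the leading-strand polymerase, was at 13, 23, 18 and 23 in WT and 48, 66, 36 and 45 in KO, a difference of 1.17 ± 0.26 (adjusted p = 0.0473). The groups did not overlap in 14 genes of the list, which held for 2.45% of all genes, all 37 differences were above 0 with a median of 0.76, and 34 genes had an unadjusted p under 0.05. The calls rested on single arrays: the count was 0 without KO day 15 replicate 1, 2 or 4 or WT day 15 replicate 1 or 3, 9 without KO day 15 replicate 3 or WT day 15 replicate 2, 6 without KO tumor replicate 2 and 5 without WT day 15 replicate 4, WT untreated replicate 1 or KO day 7 replicate 1. The call of Pola1 ended without any of 25 arrays and that of Pole without any of 26, most of them in groups outside the comparison, which left 1 gene, and Pole was at 0.77 (adjusted p = 0.0782) with 16 added before the logarithm. The count was 16 on the deposited values with no further normalization and 0 with only the arrays of both groups in the fit. Germinal centre B cell markers had a median sum over 9 genes of 657 in WT and 1210.5 in KO at day 15, with 0 of 9 called. Their list also holds Cd79a, Cd79b and Ms4a1, which other B cells express, so the sum does not mark dividing cells alone. The part of these markers in the difference was not tested.

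Among the helicase loading genes, the 6 subunits of the MCM ring followed the whole list, while Orc1 and, in WT, Cdc6 were near the median of an array before treatment. Of the ring, Mcm3 was not called at day 7 in either genotype, at -0.81 in WT and -0.82 in KO. Mcm4 had deposited intensities of 246, 190, 142 and 197 in untreated WT, 35, 37, 41 and 42 at day 7 and 131, 235, 163 and 288 at day 15, with 290 to 505 in tumor (median 442.5). The day 7 arrays lay below all others of the genotype, and all tumor arrays lay above the day 15 arrays. The KO values were 242, 286, 277 and 305 in untreated colon, 155, 68, 77 and 113 at day 7 and 347, 362, 252 and 359 at day 15, with 343 to 689 in tumor (median 460). Replicate 1 was the highest of the KO day 7 arrays and still lay below the untreated arrays. Mcm6, another ring subunit, was at 374, 297, 241 and 324 in untreated WT, 81, 64, 74 and 92 at day 7 and 154, 317, 249 and 303 at day 15, with 484 to 770 in tumor (median 668.5). Its tumor arrays overlapped none of the other WT arrays.

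Cdc6 was at 18, 25, 21 and 18 in untreated WT and 18, 18, 16 and 15 at day 7, close to the median of an array, with 30 to 59 in tumor (median 45). All tumor arrays of WT lay above all arrays of the other WT stages. Its day 7 difference in WT was -0.25 (adjusted p = 0.666). In KO, Cdc6 was at 30, 28, 30 and 33 in untreated colon and 18, 13, 19 and 22 at day 7, ranges that did not overlap. It fell there by 0.79 ± 0.21 (limma, adjusted p = 0.012), and without replicates 1 and 2 the difference was -0.59 (adjusted p = 0.151). Orc1, the largest subunit of the origin recognition complex, was at 17, 12, 12 and 12 in untreated WT and 9, 16, 16 and 13 at day 7, and at 20 to 34 in tumor (median 23). Its rise in tumor was 0.88 ± 0.25 in WT (limma, adjusted p = 0.00883) and 0.83 ± 0.25 in KO (adjusted p = 0.0143), where removing KO untreated replicate 2 ended the call (adjusted p = 0.0581).

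Of the helicase activation genes, Gins1 had the largest log2 difference of the list in WT tumor. It was at 50, 33, 25 and 34 in untreated WT, 18, 11, 15 and 17 at day 7 and 24, 45, 24 and 47 at day 15, with 78 to 133 in tumor (median 117.5). No tumor array overlapped the other stages. KO arrays gave 57, 53, 78 and 70 in untreated colon, 29, 18, 16 and 20 at day 7 and 77, 107, 51 and 68 at day 15, with 70 to 178 in tumor (median 122.5). Here the lowest tumor array lay within the untreated range, and the rise was 0.84 ± 0.25 (limma, adjusted p = 0.0145), a call that ended without KO untreated replicate 1 or 2. Gins3, a subunit of the same complex, lay between 14.25 and 23 as a group mean in all 8 groups and was called against untreated colon in KO at day 7 alone, where the call ended without KO untreated replicate 2 or 4.

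Among the polymerase genes, Pola1 fell at day 7 while its partner Pola2 was not called. Pola1 was at 93, 58, 53 and 86 in untreated WT, 17, 17, 12 and 18 at day 7 and 26, 43, 26 and 52 at day 15, with 72 to 136 in tumor (median 87.5). The tumor arrays overlapped the untreated ones. In KO, values were 86, 99, 67 and 99 in untreated colon and 48, 20, 24 and 15 at day 7, with 69 to 118 in tumor (median 96). Pola2, the accessory subunit of the same polymerase, was at 98, 92, 90 and 116 in untreated WT and 100, 56, 55 and 70 at day 7, and at 94 to 126 in tumor (median 106). It was not called against untreated colon at any stage in either genotype. Pole was at 19, 20, 26 and 24 in untreated WT and 9, 9, 11 and 9 at day 7, with 27 to 71 in tumor (median 42.5). Pold1, the catalytic subunit of polymerase delta, had group means between 30.75 and 67.25 and was called in 1 of the comparisons within a genotype, at 0.62 ± 0.17 (limma, adjusted p = 0.00835) between day 7 and day 15 in KO.

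Pcna, the sliding clamp, fell at day 7 and rose in tumor in both genotypes. It was at 2298, 1835, 1695 and 2070 in untreated WT, 985, 977, 1267 and 1152 at day 7 and 1429, 2234, 1830 and 1803 at day 15, with 2480 to 3823 in tumor (median 3181). The untreated, day 7 and tumor arrays did not overlap. The fall at day 7 was -0.82 ± 0.15 (limma, adjusted p = 0.000831) and the rise in tumor 0.70 ± 0.13 (adjusted p = 0.000232). The KO arrays stood at 2327, 2284, 2077 and 2340 in untreated colon, 1495, 1075, 866 and 1012 at day 7 and 2507, 2961, 2218 and 2471 at day 15, with 2766 to 4007 in tumor (median 3207). Rpa1 was at 534, 396, 440 and 407 in untreated WT and 307, 230, 258 and 274 at day 7, and its fall of -0.68 was called. Rpa1 in KO was at 504, 446, 523 and 472 in untreated colon and 400, 370, 396 and 379 at day 7, and the difference of -0.27 was not called (adjusted p = 0.191). Another probe set of Rpa1 (mean intensity 246.36) was at -0.50 in WT and -0.46 in KO.

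On the lagging strand, Fen1 was at 82, 61, 61 and 75 in untreated WT, 14, 18, 20 and 25 at day 7 and 48, 54, 44 and 94 at day 15, with 121 to 168 in tumor (median 143). The untreated, day 7 and tumor arrays formed 3 separate ranges. KO values of Fen1 were 76, 91, 110 and 131 in untreated colon, 41, 27, 18 and 18 at day 7 and 157, 173, 101 and 144 at day 15, with 115 to 214 in tumor (median 150). Here the day 15 arrays overlapped the tumor arrays. Lig1, the ligase that seals the trimmed fragments, fell by 1.56 ± 0.24 at day 7 in WT (limma, adjusted p = 0.000136).

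Among the nucleotide supply genes, Rrm2 rose in tumor and Tk1 did not pass the test there. Rrm2 was at 123, 74, 96 and 88 in untreated WT, 36, 26, 38 and 34 at day 7 and 69, 124, 84 and 116 at day 15, with 161 to 302 in tumor (median 200.5). Rrm2 in KO was at 99, 102, 125 and 145 in untreated colon, 56, 22, 40 and 36 at day 7 and 202, 208, 106 and 192 at day 15, with 238 to 387 in tumor (median 253). Tumor arrays lay above all other arrays in both genotypes. Tk1 was at 155, 111, 168 and 140 in untreated WT, 24, 45, 24 and 31 at day 7 and 36, 107, 76 and 104 at day 15, with 102 to 219 in tumor (median 149). Tk1 in KO was at 159, 168, 152 and 198 in untreated colon, 71, 37, 24 and 30 at day 7 and 152, 301, 140 and 130 at day 15, with 134 to 258 in tumor (median 171). Its tumor and untreated arrays overlapped in both genotypes, with differences of 0.09 and 0.06. Rrm1, the large subunit of the reductase, fell by 1.64 ± 0.22 at day 7 in WT (limma, adjusted p = 2.12e-05) and rose by 0.75 ± 0.20 in KO tumor (adjusted p = 0.00716).

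Of the genes that copy chromatin, Uhrf1 was at 136, 98, 80 and 80 in untreated WT, 19, 15, 10 and 14 at day 7 and 27, 79, 70 and 66 at day 15, with 130 to 219 in tumor (median 145.5). Day 7 arrays were near the median of an array, and WT day 15 replicate 1 was the lowest at day 15, as in most genes of the list. In KO it was at 105, 130, 150 and 167 in untreated colon, 48, 47, 29 and 57 at day 7 and 160, 223, 115 and 116 at day 15, with 119 to 297 in tumor (median 135.5). Dnmt1, which copies DNA methylation to the new strand, was called lower at day 7 in WT, a call that ended without WT untreated replicate 1 (adjusted p = 0.0536), and stood at -0.53 in KO (adjusted p = 0.0659).

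The genes of the list followed each other closely over the 36 arrays, which share their stage. The correlation of a gene with the mean of the other members was 0.975 for Gins1 and Mcm6 and 0.974 for Rrm1 and Lig1, and lowest for Pola2 at 0.557, Pold1 at 0.689, Orc1 at 0.736 and Gins3 at 0.767. Over the 666 pairs of genes the correlation was 0.294 to 0.976, with a median of 0.882. After the mean of each group was taken off, 658 of the 666 pairs remained above 0, with a median of 0.557, so the genes also varied together among arrays of a group. Outside the list, the genes with the highest correlation with its mean over the 36 arrays were Fignl1 at 0.98, Hells at 0.979, Dtl at 0.976, Tfdp1 at 0.975, Pclaf at 0.971, Tpx2 and Hat1 at 0.966, Clspn at 0.965, and Mad2l1 and Trip13 at 0.964. A further 29 probe sets measured 22 of the 37 genes. Of the 16 of them with a mean intensity of at least 16, 15 in WT and 16 in KO had the same sign as the probe set used at day 7, and 16 in WT and 15 in KO in tumor.

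Of 28 measured genes for other parts of the replication machinery, 9 fell at day 7 in WT and 12 in the arrays labelled KO, and 15 rose in WT tumor and 8 in KO tumor. Of all genes, 1.35% and 6.55% were called lower at day 7 and 12.5% and 10.8% higher in tumor, in WT and KO. Without KO day 7 replicates 1 and 2, 11 fell in KO. Asf1b, a histone chaperone at the fork, fell by 2.44 ± 0.27 in WT (limma, adjusted p = 1.42e-06) and by 2.19 ± 0.27 in KO at day 7 (adjusted p = 1.65e-06). Orc5, a subunit of the origin recognition complex, rose by 0.83 ± 0.14 in KO tumor (adjusted p = 4.53e-05). Without the arrays with high Krt5, 2 genes were called at day 7 in WT and 4 in KO tumor, and the KO tumor count was 4 without KO untreated replicate 1 or 2 or KO tumor replicate 2 and 5 without KO tumor replicate 6. Timeless, a fork protection factor, was higher in KO at day 7 by 1.02 ± 0.22 (adjusted p = 0.0348; 0.152 without WT day 7 replicate 2 and 0.225 without KO day 7 replicates 1 and 2), and Hells, a chromatin remodeller, at day 15 by 1.64 ± 0.30 (adjusted p = 0.0137; 0.0991 without WT day 15 replicate 1).

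Among 21 measured regulators of S phase entry, 7 fell at day 7 in WT and 8 in the arrays labelled KO, and 13 rose in WT tumor and 10 in KO tumor, against the same shares of all genes (1.35% and 6.55% lower, 12.5% and 10.8% higher). The KO day 7 count was 10 without replicates 1 and 2. Dbf4, the activator of the origin-firing kinase Cdc7, fell by 1.83 ± 0.22 at day 7 in WT (limma, adjusted p = 3.51e-06). In WT tumor, Skp2, which marks Cdk inhibitors for breakdown, rose by 1.16 ± 0.21 (adjusted p = 0.000109), the G1 kinase Cdk4 by 1.08 ± 0.20 (adjusted p = 0.000145) and the growth regulator Myc by 1.10 ± 0.23 (adjusted p = 0.000795). In KO tumor Cdk4 rose by 1.17 ± 0.20 (adjusted p = 6e-05) and Myc by 0.94 ± 0.23 (adjusted p = 0.00358). The day 7 count in WT was 3 without the arrays with high Krt5, and the KO tumor count was 6 without them, without KO untreated replicate 1 or 2 or without KO tumor replicate 2.

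Of 15 cell cycle brakes, 5 fell and 1 rose in WT tumor, and 5 fell and 2 rose in KO tumor. Of all genes, 10.1% were called lower and 12.5% higher in WT tumor, and 9.91% lower and 10.8% higher in KO tumor. Cdkn1c, an inhibitor of cyclin-dependent kinases, had the largest change, a rise of 3.10 ± 0.38 in WT (limma, adjusted p = 5.36e-07) and of 2.99 ± 0.38 in KO (adjusted p = 1.11e-06). Cdkn1a, the p53-induced inhibitor, fell by 0.95 ± 0.18 (adjusted p = 0.000258) and 1.25 ± 0.18 (adjusted p = 8.35e-06), and the pocket protein gene Rb1 by 0.60 ± 0.12 (adjusted p = 0.000275) and 0.80 ± 0.12 (adjusted p = 7.54e-06). At day 7, 1 rose and 1 fell in WT, and 1 rose and 4 fell in the arrays labelled KO. Of all genes, 0.304% were called higher and 1.35% lower in WT, and 5.64% higher and 6.55% lower in KO. These 2 and 5 calls were 1 without WT untreated replicate 1 or 4 or WT day 7 replicate 2 or 3, and 3 and 2 without KO day 7 replicates 2 and 3. Without both KO day 7 replicates 1 and 2, 3 brakes fell and 0 rose in KO.

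Mitosis genes fell at day 7, and few passed the test in tumor. Of 23 measured, 21 fell at day 7 in WT and 22 in the arrays labelled KO, with medians of -1.72 and -1.91, while 2 rose in WT tumor and 0 in KO tumor by limma, with medians of 0.34 and 0.27. At day 7, 1.35% of all genes were called lower in WT and 6.55% in KO. In tumor 12.5% and 10.8% of all genes were called higher, so the shares of mitosis genes in tumor were not above those of all genes. The KO day 7 count was 21 without replicates 1 and 2. Top2a, the topoisomerase that untangles copied chromosomes, fell by 2.52 ± 0.29 at day 7 in WT (adjusted p = 1.44e-06). The 2 genes higher in WT tumor were Cdk1 at 0.65 ± 0.24 (adjusted p = 0.0441) and Tpx2 at 0.70 ± 0.25 (adjusted p = 0.0446), and each lost its call without any of 6 single arrays, with adjusted p up to 0.157. The count was 0 without WT untreated replicate 2 or 4 or WT tumor replicate 2, 4 or 5, and 6 without WT day 15 replicate 1. Without the arrays with high Krt5 the WT day 7 count was 11 and the WT tumor count 0. Whether the mitosis and replication genes differed from each other in tumor was not tested. At day 15 in WT 9 mitosis genes were still lower than in untreated colon, when 1.28% of all genes were called lower. That count was 1 without WT untreated replicate 1 or WT day 15 replicate 1, and 2 without WT untreated replicate 3. Kif11, a spindle motor, was higher in KO than in WT at day 15 by 1.46 ± 0.25 (adjusted p = 0.00566; 0.0576 without WT day 15 replicate 1).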

How the data were processed

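RNA from minced and homogenized colon was labelled with biotin and hybridized to the arrays, per the labels' protocols. The values are the intensity of each of 45037 probe sets, deposited by the authors on a linear scale as whole numbers from 4 to 14185, and how the authors corrected, normalized and summarized them is not stated in the labels. Arrays have no read depth, and precision is limited by the 4 to 6 arrays of a group and by signals near background. Correlations between arrays were 0.913 to 0.995, and 0 pairs were identical.

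Probe sets with exactly 1 gene symbol in the platform annotation (28898, with 551 having several and 15588 none) were kept, 28689 of which matched a RefSeq gene, and 1 probe set per gene was used. After 1 was added, values were log2-transformed, and arrays were quantile normalized. Limma 3.58.1 in R 4.3.3 fitted 1 mean per group over all 36 arrays with variances moderated along a trend with intensity. Benjamini-Hochberg adjustment of p-values ran over all 17097 genes within each of 17 comparisons, with a threshold of 0.05, after the procedure was tested on simulated data. Groups do not overlap when every array of 1 group lies above every array of the other. Comparisons that share a group share its arrays, untreated controls included. Alternatives were other constants, normalizations, filters, probe set rules, variance models, blocks and subsets of arrays.

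The members, gene lists and tests were chosen with earlier results of these data known. Any measured member could be named, and of the other lists up to 4 genes per comparison with the smallest p among those called. Further genes were named by the 10 highest correlations with the mean of the list. Marker lists covered squamous and colon epithelium, smooth muscle, stroma, immune cells and stem cells. Of these, 1 of 8 stroma and 2 of 6 neutrophil genes were called higher in tumor in each genotype, and 0 of either at day 7. Median neutrophil sums went from 170 in untreated colon to 4277.5 in tumor in WT and from 82.5 to 3264.5 in KO. Macrophage sums went from 1293.5 to 6717.5 in WT and from 2933 to 6671 in KO, and were 1362 and 619.5 at day 7. T cell sums went from 80.5 to 143.5 in WT tumor and from 208.5 to 196 in KO tumor. The part of these in the results was not tested.

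Equal replicate numbers do not pair the arrays by the labels. As a check, arrays of equal number were correlated by their deviations from the group means. The 4 pairs all exceeded 0.1 between WT day 7 and untreated WT (0.165 to 0.397) and between the genotypes at day 15 (0.173 to 0.8), and with the replicate number as a block the counts there were 25 and 3, as without it.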

Additional observations from a re-analysis of the deposited data

Results flagged for a closer look

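In 72 groups of arrays, formed by the whole list and its 8 roles in each group, the highest or lowest array was set against the others. In 3 of them 1 array stood apart by Dixon's criterion at the 95% level, where chance gives about 1 in 20. The mean log2 difference from untreated WT of the helicase loading genes was 1.61 in KO tumor replicate 2 and 0.745 to 1.04 in the other KO tumor arrays. The mean of the helicase activation genes was -0.969 in WT day 7 replicate 2 and -0.764 to -0.739 in the others. The mean of the nucleotide supply genes was -1.77 in WT day 7 replicate 1 and -1.39 to -1.33 in the others.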

How the results depend on the processing

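No called difference of a gene of the list changed sign under any alternative run. Counts that moved by over 1.5 times, or to or from 0, follow by setting, as genes called of 37. On the deposited values with no further normalization, 2 genes were called at day 15 in WT, 4 in KO tumor against day 15, 5 between genotypes at day 7 and 16 at day 15. With each array centred on its median, 2 were called at day 15 in WT and 13 between genotypes at day 15. With dim genes left out, 3 were called at day 15 in WT and 5 between genotypes at day 7, and with the mean of all probe sets 1 between genotypes at day 7. With array weights, 0 were called at day 15 in WT, 4 and 9 between genotypes in untreated colon and at day 7, and 3 in the interaction at day 7. With only the groups compared in the fit, 0 were called at day 15 in WT, 2 between day 7 and day 15 in WT, 4 in KO tumor against day 15, and 1, 0 and 0 between genotypes in untreated colon, at day 7 and at day 15. With the replicate block, 13 were called in KO tumor against day 15, and no other count moved that far. Blocking on the letter in the title code, 16 were called at day 7 in WT, 0 at day 15 in WT, 9 between day 7 and day 15 in WT, 0 in KO tumor against day 15 and 0 between genotypes at day 15, where blocking on the number in that code also gave 0. Without the arrays with Krt5 above 100, 7 were called at day 7 in WT, 0 at day 15 in WT, 3 in KO tumor against day 15 and 5 between genotypes at day 7 and at day 15. Without KO day 7 replicates 1 and 2, 2 were called at day 15 in WT and 1 between genotypes at day 7. Without KO tumor replicate 4, 1 was called between genotypes at day 15. Without replicate 4 of both genotypes at day 15, 11 were called between day 7 and day 15 in WT, 3 in KO tumor against day 15 and 5 between genotypes at day 7. The causes were not tested.

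Leaving out 1 array at a time gave counts of 21 to 26 at day 7, 0 to 3 at day 15 and 19 to 29 in tumor against untreated colon in WT, and 27 to 32, 0 to 0 and 8 to 16 in KO. Against the stage before, it gave 7 to 20 at day 15 and 32 to 36 in tumor in WT, and 30 to 34 and 2 to 14 in KO. Between genotypes it gave 0 to 1 in untreated colon, 1 to 6 at day 7, 0 to 9 at day 15 and 0 to 0 in tumor. The number of arrays, dim signals and the unknown processing before deposit limit these results.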
